A study of Glycine max with 108 samples.

Results

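The flowers described here came from soybean plants (Glycine max, cultivar Magellan) that received salinity, acidity, water deficit, low phosphate and cadmium together. Their transcripts were set against those of unstressed control flowers and of flowers given cadmium as the only stress. The members are 9 of the 108 samples of the series, taken from the 54 flower samples by their labels, with 3 5-stress, 3 control and 3 cadmium samples. The series measured RNA by paired-end sequencing in leaves and flowers under 18 treatments, which are a control, 5 single stresses and combinations of them. It asks how plants respond when stresses meet.

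All plants grew from seeds coated with Bradyrhizobium japonicum, the nitrogen-fixing root symbiont, and were 31 days old at harvest, and 5 to 7 plants were pooled for each sample. A replicate is therefore a pool, and differences between single plants cannot be seen. Control plants were irrigated at 100% of the water available for transpiration and received neither salt nor cadmium. Cadmium plants had the same irrigation and 300 µM cadmium given every other week. Plants of the 5-stress group had 300 µM cadmium, 15 mM salt given once and irrigation at 30%, with acidity and low phosphate added through the nutrient solution. How acid the solution was and how far phosphate was cut is stated only for plants given that stress alone, and the combination is assumed to match. A combination of the 4 stresses without cadmium has 2 usable libraries and serves as a companion group.

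Each of the 5 stresses reaches the flower indirectly. Salt lowers the water potential of the soil solution and brings sodium and chloride into the shoot, and water deficit limits the water that the shoot can transpire. Acidity changes the solubility of nutrients and metals around the root, low phosphate limits a constituent of nucleic acids and membranes, and cadmium is a toxic metal that competes with nutrient metals for uptake. Flowers of a plant under water deficit are known to depend on how the plant divides its remaining water between leaves and reproductive organs.

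The deposited values are FPKM, sequenced fragments per unit of transcript length and of library size. A difference here is on the log2(FPKM + 1) scale, which understates changes of low genes, and a gene was called when limma gave a Benjamini-Hochberg adjusted p under 0.05. The table listed 57147 features by ID alone. Of these, 33792 had a flower mean of at least 1 FPKM, 674 were dropped because they held both 0 and at least 10 FPKM inside a group, and 33118 were tested. The IDs could not be paired with gene names or functions, so genes are described by ID, level and behaviour across treatments. Read totals are not in the tables, but the steps of low values gave relative depths of 0.952, 0.922 and 0.987 for control, 1.012, 0.981 and 1.003 for cadmium and 0.908, 0.906 and 0.982 for 5 stresses. The 51 flower libraries used ranged from 0.894 to 1.203.

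One library stood apart. The 5-stress replicate 1 had Pearson correlations across genes of 0.957 and 0.962 with the other 5-stress libraries, which correlated with each other at 0.982. Its highest correlations were 0.972 with a 4-stress library, 0.965 with a control library and 0.965 with a cadmium library, all above both correlations with its own group. The median standard deviation of a gene within the 5-stress group was 0.163 (log2 scale), and it was 0.098 without that replicate, beside 0.111 in control and 0.140 in cadmium. The counts of calls, the differences for which features were named and the values of the gene lists are therefore given with and without it. The 9 libraries and the 2 4-stress libraries correlated at no less than 0.931 with any flower library and at no more than 0.748 with any leaf library. Markers of flower organs or of other tissues could not be looked up among unnamed IDs.

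Against control, the 5-stress flowers shifted many genes by small amounts. Of the 33118 features, 5993 were called (18.1%), of which 3872 were higher (11.7%) and 2121 lower (6.40%). The median difference was 0.47 among the higher genes and -0.44 among the lower ones, and 90% of the called genes differed by no more than 0.83. At least 2-fold differences were reached by 183 higher and 85 lower genes, together 0.809% of those tested. With no test, the 3 5-stress libraries lay above all 3 control libraries for 6720 features (20.3%) and below them for 4076 (12.3%), together 32.6%. In whole flowers, fewer cells of a type and less RNA per cell cannot be told apart. Without 5-stress replicate 1, 7173 genes were called, 4311 higher and 2862 lower. Leaving out replicate 3 of that group gave 3838, and fitting only the 5-stress and control groups gave 2423. Library scaling decided which direction was in excess. As deposited 64.6% of the called genes were higher, and after each library was scaled to its median ratio the share was 48.6%.

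Against cadmium alone, the 5-stress flowers differed in fewer genes, and mostly downward among the large differences. The calls were 1922 (5.80%), with 768 higher (2.32%) and 1154 lower (3.48%). At least 2-fold differences were reached by 31 higher and 144 lower genes, together 0.528%. The 5-stress libraries lay above all 3 cadmium libraries for 2621 features (7.91%) and below them for 3282 (9.91%), together 17.8%. The median difference was 0.47 among the higher and -0.58 among the lower genes. Without 5-stress replicate 1 there were 2404 calls, 866 higher and 1538 lower. Leaving out cadmium replicate 3 gave 1215. Fitting only the 5-stress and cadmium groups gave 161, while fitting only the cadmium and control groups gave 8974 calls for that comparison, beside 10258. The cause of the lower count was not tested. After scaling to the median ratio 47.3% of the calls were higher. For reference, cadmium alone against control had 10258 calls (31.0%), and 4 stresses against control had 1187 (3.58%) with its 2 libraries. These comparisons share control or 5-stress libraries, so their counts are set side by side and their overlap is not used.

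**Figure D1:**
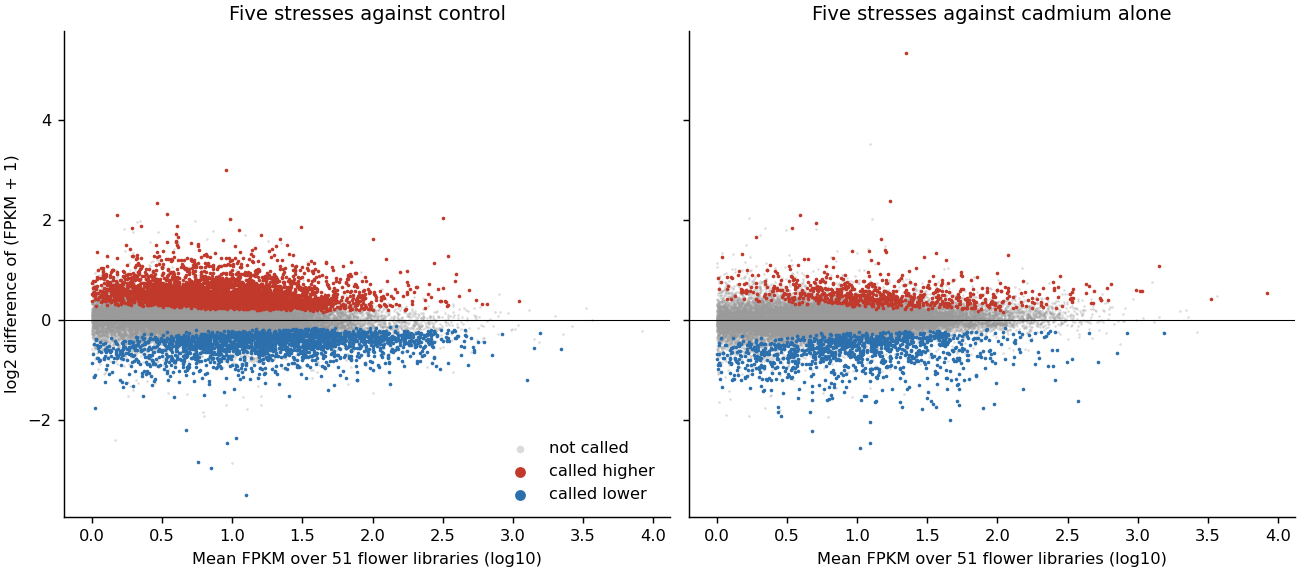
Difference between 5-stress flowers and control (left) or cadmium alone (right), on the log2(FPKM + 1) scale, against the mean FPKM of each feature over 51 flower libraries (log10 axis). Each point is 1 of 33118 features. Red and blue points are the 3872 higher and 2121 lower calls on the left and the 768 higher and 1154 lower calls on the right, and most lie within 1 log2 unit of 0.

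The direction of the change against control depended on how strongly a gene was expressed. Among the 943 features that averaged 100 FPKM or more, 277 were lower (29.4%) and 70 higher (7.42%). Among the 12178 features between 1 and 5 FPKM the order was the opposite, with 1110 higher (9.11%) and 369 lower (3.03%). The class from 5 to 20 FPKM had 13.6% higher and 5.05% lower, and the class from 20 to 100 FPKM had 13.2% higher and 13.5% lower. The calls among abundant transcripts were thus mostly lower and those among scarce ones mostly higher, while most features of both classes were not called. Without 5-stress replicate 1 the most abundant class had 36.2% lower and 8.80% higher. With libraries scaled to the median ratio it had 37.9% lower and 5.94% higher. The class from 1 to 5 FPKM then kept more higher (7.24%) than lower (4.07%) calls, and the class from 20 to 100 FPKM had 9.7% higher and 19.7% lower. Because FPKM is a share of each library, a fall of abundant transcripts and a rise of scarce ones are not independent of each other.

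Against cadmium alone the abundant class had the opposite balance. Of the same 943 features, 78 were higher (8.27%) and 44 lower (4.67%), while the class from 1 to 5 FPKM had 1.12% higher and 2.58% lower. Without 5-stress replicate 1, the abundant class had 8.06% higher and 7.00% lower. Cadmium alone against control had 48.3% of this class lower and 11.3% higher, a comparison that shares the control libraries with the first and the cadmium libraries with the second.

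**Figure D2:**
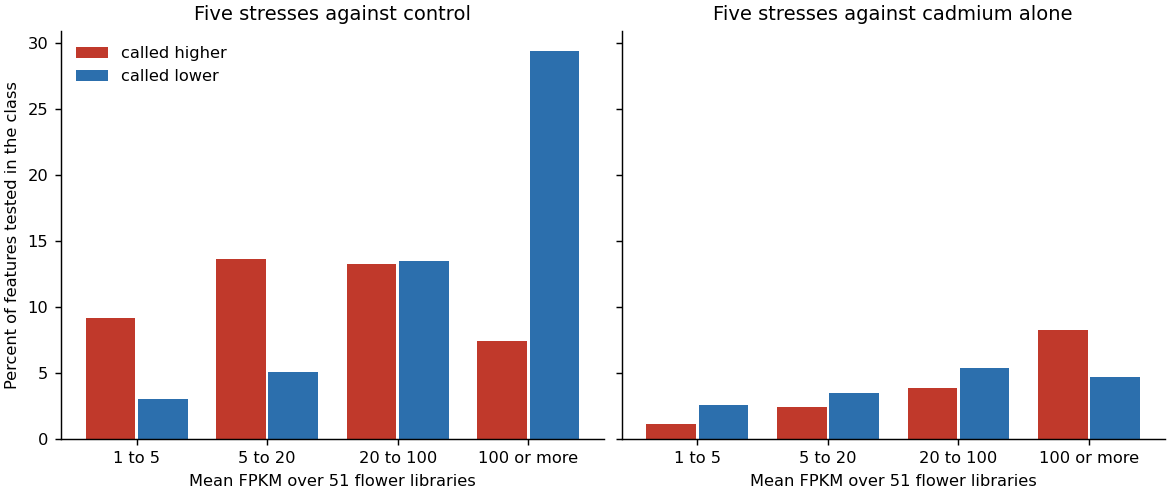
Percent of the features tested in each expression class that were called higher (red) or lower (blue) in 5-stress flowers than in control (left) or cadmium alone (right). The classes hold 12178, 14482, 5515 and 943 features from the left. Against control the lower share goes from 3.03% in the lowest class to 29.4% in the highest.

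The features of ENSRNA form, which are a separate series of IDs in the table, had few calls. Of 158 tested, 1 was higher and 3 were lower than control (2.53%, against 18.1% of all features), and all 4 differed by at least 2-fold. Their median difference from control was -0.31, against 0.04 over all features, so few calls do not show that they kept their level. In the comparison with cadmium 1 was higher and 0 were lower (0.633%, against 5.80% of all features). By the chromosome number in the GLYMA IDs, all 20 chromosomes held called genes in both comparisons.

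The largest called rise against control with no overlap between libraries was GLYMA_U032900, whose ID carries no chromosome number. Control libraries had 1.54, 0.867 and 1.33 FPKM, and 5-stress libraries had 18.6, 19.2 and 13.2 FPKM. The cadmium libraries had 17.2, 6.29 and 26.3 FPKM and the 4-stress libraries 4.54 and 6.75 FPKM. All 3 5-stress libraries lay far above control and inside the wide range of the cadmium libraries. The difference from control was 3.00 (SE 0.49, limma adjusted p = 3.73e-05), and from cadmium it was 0.21 (SE 0.49, limma adjusted p = 0.881). The difference from control was 2.93 without 5-stress replicate 1 (limma adjusted p = 0.000245). The control was the low point of this gene, below every other flower library, with the other 17 treatment means between 4.02 and 17.0 FPKM.

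The next rise, GLYMA_03G091900, was listed at 0 in every control library, while the 5-stress libraries had 6.23, 2.70 and 3.87 FPKM. The cadmium libraries had 2.30, 6.01 and 0 FPKM, so cadmium overlapped both groups. A listed 0 can be a failed estimate, and no fold is given. The limma adjusted p against control was 0.03, and the call was lost when any control library or 5-stress replicate 1 (adjusted p = 0.0845) or 3 was left out.

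The largest fall against control was GLYMA_15G271600. Its control libraries had 28.1, 21.6 and 43.7 FPKM, the 5-stress libraries 5.64, 0.162 and 1.69 FPKM, and the cadmium libraries 18.3, 9.70 and 15.6 FPKM. The 5-stress libraries lay below every control and every cadmium library, and the spread among them was wide. The difference was -3.49 from control (SE 0.51, limma adjusted p = 8.13e-06) and -2.46 from cadmium (SE 0.51, limma adjusted p = 0.00191), and the latter was not called when only those 2 groups were fitted (adjusted p = 0.149). These differences were -4.13 and -3.09 without 5-stress replicate 1. The 5-stress mean of 2.50 ± 2.83 FPKM (SD, n = 3) was the lowest of the 18 treatments. It was close to the 2.74 ± 0.353 FPKM (SD, n = 3) of salinity, water deficit and low phosphate, a treatment with neither acidity nor cadmium. The 4-stress libraries, without cadmium, had 4.81 and 3.40 FPKM. Their difference from control was -2.61 (SE 0.575, limma adjusted p = 0.00488) and was also called.

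GLYMA_16G197100 fell in a like manner. It was at 17.4, 11.8 and 28.8 FPKM in control, 4.29, 6.03 and 5.74 FPKM in cadmium and 5.52, 0.717 and 0.340 FPKM in the 5-stress libraries. Every 5-stress and cadmium library lay below control, and replicate 1 was the highest 5-stress library. The difference from control was -2.96 (SE 0.55, limma adjusted p = 0.000208), and -3.66 without 5-stress replicate 1. The difference from cadmium was -1.35 (SE 0.55, limma adjusted p = 0.162) and was not called. The 4-stress libraries had 3.91 and 3.05 FPKM, and their difference from control was called, at -2.10 (SE 0.617, limma adjusted p = 0.0472). The lowest mean was 1.85 ± 2.488 FPKM (SD, n = 3) under salinity with water deficit and low phosphate, beside 2.19 ± 2.885 FPKM (SD, n = 3) under 5 stresses.

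**Figure D3:**
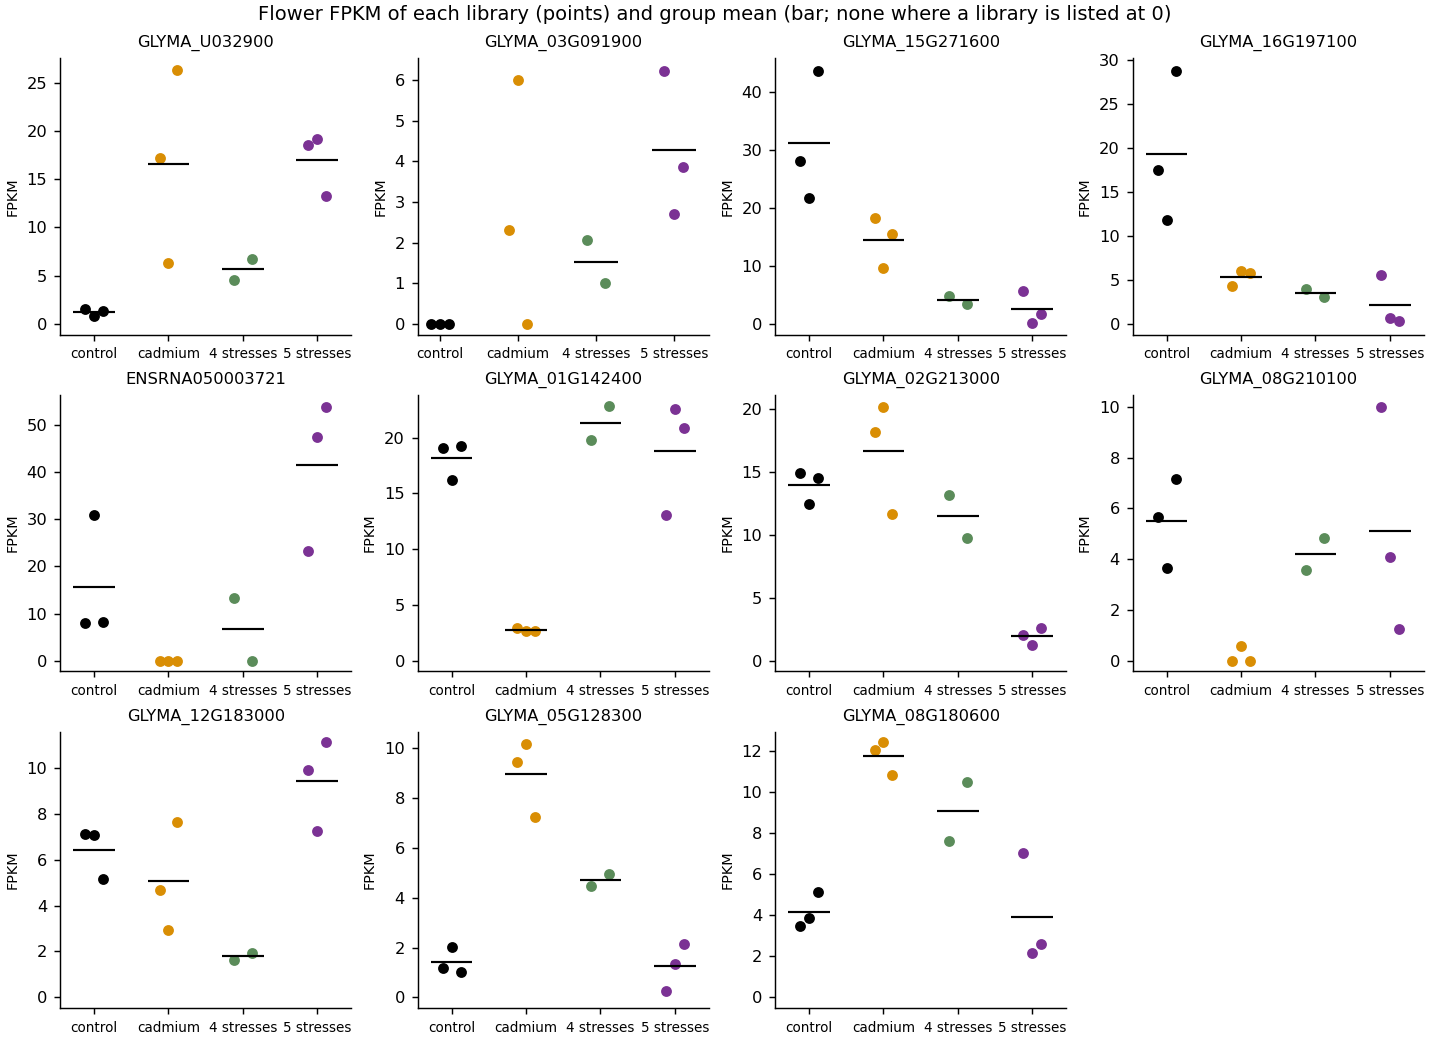
FPKM of the 11 features named by ID in each flower library of the control, cadmium, 4-stress and 5-stress groups (points, n = 3, 3, 2 and 3), with the group mean as a bar where no library is listed at 0. GLYMA_01G142400 is low in cadmium only among these 4 groups, and GLYMA_02G213000 is low in 5 stresses only among them.

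Of the rises from cadmium named by the rule, GLYMA_01G142400 had the smaller standard error. Cadmium libraries had 2.95, 2.68 and 2.64 FPKM, and 5-stress libraries had 13.03, 22.6 and 20.8 FPKM. The control libraries had 19.1, 16.2 and 19.3 FPKM and the 4-stress libraries 19.8 and 22.8 FPKM. Cadmium alone stood below the other 3 groups in every library, and the 5-stress libraries overlapped the control. The difference from cadmium was 2.37 (SE 0.15, limma adjusted p = 1.7e-14), and 2.60 without 5-stress replicate 1. From control it was 0.02 (SE 0.15, limma adjusted p = 0.954).

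The low level of GLYMA_01G142400 was found again in flowers under acidity alone, at 2.51 ± 0.286 FPKM (SD, n = 2), the lowest of the 18 treatments. Acidity with low phosphate had 7.47 ± 0.835 FPKM (SD, n = 3) and water deficit alone 7.66 ± 0.576 FPKM (SD, n = 2), next above acidity and cadmium in the order. Acidity with water deficit had 18.4 ± 3.21 FPKM (SD, n = 3). The highest level was 34.9 ± 6.59 FPKM (SD, n = 3) under salinity with low phosphate. In leaf, by contrast, the 5-stress libraries were below cadmium, at 1.60, 1.27 and 1.71 FPKM against 3.02, 2.42 and 3.02 FPKM, a difference of -0.60 (SE 0.11, limma adjusted p = 1.34e-05 in the leaf fit).

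The other feature that the rule placed among the rises from cadmium was ENSRNA050003721. It was at 23.3, 47.4 and 53.8 FPKM in the 5-stress libraries and was listed at 0, 1.15e-05 and 0 FPKM in the cadmium libraries. Control had 8.09, 31.0 and 8.13 FPKM, and the 4-stress libraries had 13.2 and 3.42e-06 FPKM. The 5-stress libraries lay above cadmium and overlapped control, while the 4-stress libraries switched between near 0 and a measurable level. Such switching was also seen in several other flower groups, though not in all. Libraries ran from 5.71e-06 to 59.1 FPKM under salinity with low phosphate and from 3.76e-05 to 33.5 FPKM under low phosphate alone. The feature passed the filter on switching features only because these near-0 values, 3.42e-06 among them, are not an exact 0. It is dropped when values under 0.001 FPKM count as 0, an alternative chosen after the data were seen. The limma adjusted p against cadmium was 0.0281, and the call was lost when any cadmium library or 5-stress replicate 2 or 3 was left out (adjusted p = 0.0366 without replicate 1). No fold is given against values at or near 0.

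GLYMA_02G213000 was the largest fall from cadmium. The 5-stress libraries had 2.03, 1.26 and 2.63 FPKM, the cadmium libraries 18.2, 20.2 and 11.7 FPKM, the control libraries 15.0, 12.4 and 14.5 FPKM, and the 4-stress libraries 13.2 and 9.79 FPKM. All 3 5-stress libraries lay below every library of the other 3 groups, and those 3 groups lay near one another. The difference was -2.57 from cadmium (SE 0.25, limma adjusted p = 2.36e-09, and -2.59 without 5-stress replicate 1) and -2.36 from control (SE 0.25, limma adjusted p = 3e-08). The 4 stresses against control gave -0.27 (SE 0.28, limma adjusted p = 0.738).

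Across all 18 treatments, GLYMA_02G213000 ran from 1.97 ± 0.685 FPKM (SD, n = 3) under 5 stresses to 36.8 ± 2.91 FPKM (SD, n = 2) under acidity alone. Treatments next to the 5-stress level were water deficit with low phosphate, at 3.23 ± 0.790 FPKM (SD, n = 3), acidity with water deficit, at 3.84 ± 0.877 FPKM (SD, n = 3), and salinity with water deficit and low phosphate, at 3.94 ± 0.903 FPKM (SD, n = 3). The 5-stress libraries did not lie below every other flower library. The lowest levels were thus held by combinations with water deficit, but not every treatment with water deficit was low. Water deficit alone was at 9.60 ± 1.33 FPKM (SD, n = 2) and the 4-stress combination at 11.5 ± 2.41 FPKM (SD, n = 2). Salinity with acidity and low phosphate, at 5.43 ± 1.25 FPKM (SD, n = 3), was below salinity with acidity and water deficit, at 6.27 ± 0.403 FPKM (SD, n = 3).

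The contrast of the 4-stress effect with and without cadmium asks whether adding the 4 stresses to cadmium-treated plants did the same as adding them to control plants. It was called for 1284 features (3.88%), with 408 positive (1.23%) and 876 negative (2.65%) differences, of which 61 and 256 were at least 2-fold. It rests on the 2 4-stress libraries, and without them in turn the counts were 728 (without replicate 2) and 537 (without replicate 3). Leaving out 5-stress replicate 1 gave 1563, fitting only these 4 groups gave 389, and counting the averaged 4-stress, acidity and water deficit columns as libraries gave 2273. After scaling to the median ratio 42.8% of 1267 calls were positive, against 31.8% as deposited.

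The largest negative difference was that of GLYMA_05G128300. It was at 1.17, 2.03 and 1.02 FPKM in control, 9.46, 10.2 and 7.24 FPKM in cadmium, 4.49 and 4.94 FPKM in 4 stresses and 0.274, 1.35 and 2.15 FPKM in 5 stresses. Cadmium alone and the 4 stresses each stood above control in every library, and the 5-stress libraries overlapped the control. The difference of effects was -3.50 (SE 0.58, limma adjusted p = 0.000193), and -3.13 without 5-stress replicate 1. The 5-stress mean of 1.26 ± 0.942 FPKM (SD, n = 3) and the control mean of 1.41 ± 0.544 FPKM (SD, n = 3) were the lowest of the 18 treatments, and acidity alone was the highest, at 12.4 ± 5.27 FPKM (SD, n = 2).

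GLYMA_08G180600 had the same order of groups. It was at 3.46, 3.87 and 5.12 FPKM in control, 12.03, 12.4 and 10.8 FPKM in cadmium, 7.60 and 10.5 FPKM in 4 stresses and 7.01, 2.13 and 2.59 FPKM in 5 stresses. Cadmium and 4 stresses stood above every control library, and of the 5-stress libraries only replicate 1 did. The difference of effects was -2.47 (SE 0.29, limma adjusted p = 3.09e-07), or -2.89 without 5-stress replicate 1, and 5 stresses against cadmium gave -1.51 (SE 0.19, limma adjusted p = 4.99e-07). In leaf the gene was listed at 0 in both control libraries, at 0.189, 0.132 and 0.0595 FPKM in cadmium and at 4.70, 4.50 and 6.07 FPKM in 5 stresses, a difference from cadmium of 2.43 (SE 0.10, limma adjusted p = 1.53e-23 in the leaf fit). The 5-stress libraries thus lay below cadmium in flower and above it in leaf.

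The positive differences were less stable. GLYMA_08G210100 was listed at 0, 0.591 and 0 FPKM in cadmium, at 5.66, 3.64 and 7.16 FPKM in control, at 3.57 and 4.84 FPKM in 4 stresses and at 9.98, 4.10 and 1.23 FPKM in 5 stresses. The cadmium libraries were below all others, and the 5-stress libraries spread over the range of control and beyond. Its difference of effects was 2.39 (SE 0.62, limma adjusted p = 0.0191), and the call was lost in 5 of 22 alternatives. One of these left out 5-stress replicate 1, which gave 1.82 (adjusted p = 0.0671). GLYMA_12G183000 was at 7.10, 7.06 and 5.14 FPKM in control, 4.70, 2.93 and 7.64 FPKM in cadmium, 1.63 and 1.94 FPKM in 4 stresses and 9.89, 7.25 and 11.1 FPKM in 5 stresses. The 4 stresses without cadmium gave the lowest libraries and 5 stresses lay above control in every library, for a difference of effects of 2.24 (SE 0.60, limma adjusted p = 0.0266), whose call was lost in 6 of 23 alternatives. The adjusted p was 0.0417 when 5-stress replicate 1 was left out. Taken singly, 5 stresses differed from control by 0.48 (limma adjusted p = 0.436) and from cadmium by 0.83 (limma adjusted p = 0.264). The 4 stresses differed from control by -1.41 (limma adjusted p = 0.0752), and none of these differences was called.

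The genes called against control were then followed through the 16 other flower treatments, whose libraries the comparison with control did not use for its difference. For each gene, the deviation of a treatment from the mean of the 16 was taken on the log2 scale. The 3872 higher genes were highest under cadmium alone, with a median deviation of 0.20 and 85.0% of the genes above 0. Over all tested features the median there was 0.04, and 56.8% lay above 0. The next treatment, salinity with water deficit and low phosphate, had 0.07. The 4-stress combination, which differs from the 5-stress one by cadmium only, had 0.02. At the other end was salinity with low phosphate, at -0.17 and with 8.24% of the genes above 0. All tested features had the same treatments at the ends of the order, with -0.02 and 44.0% above 0 under salinity with low phosphate.

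The 2121 genes lower than control mirrored this order at its ends. They were lowest under cadmium alone, with a median deviation of -0.19 and 24.7% of the genes above 0, and highest under salinity with low phosphate, at 0.15 and with 83.2% above 0. When the genes were called without 5-stress replicate 1, the medians under cadmium were 0.20 for the higher and -0.17 for the lower genes. With libraries scaled to the median ratio they were 0.17 and -0.21. Among treatments outside the comparison, cadmium alone was therefore the one at which these genes lay farthest in the 5-stress direction, and these are medians over genes, which are not independent replicates.

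**Figure D4:**
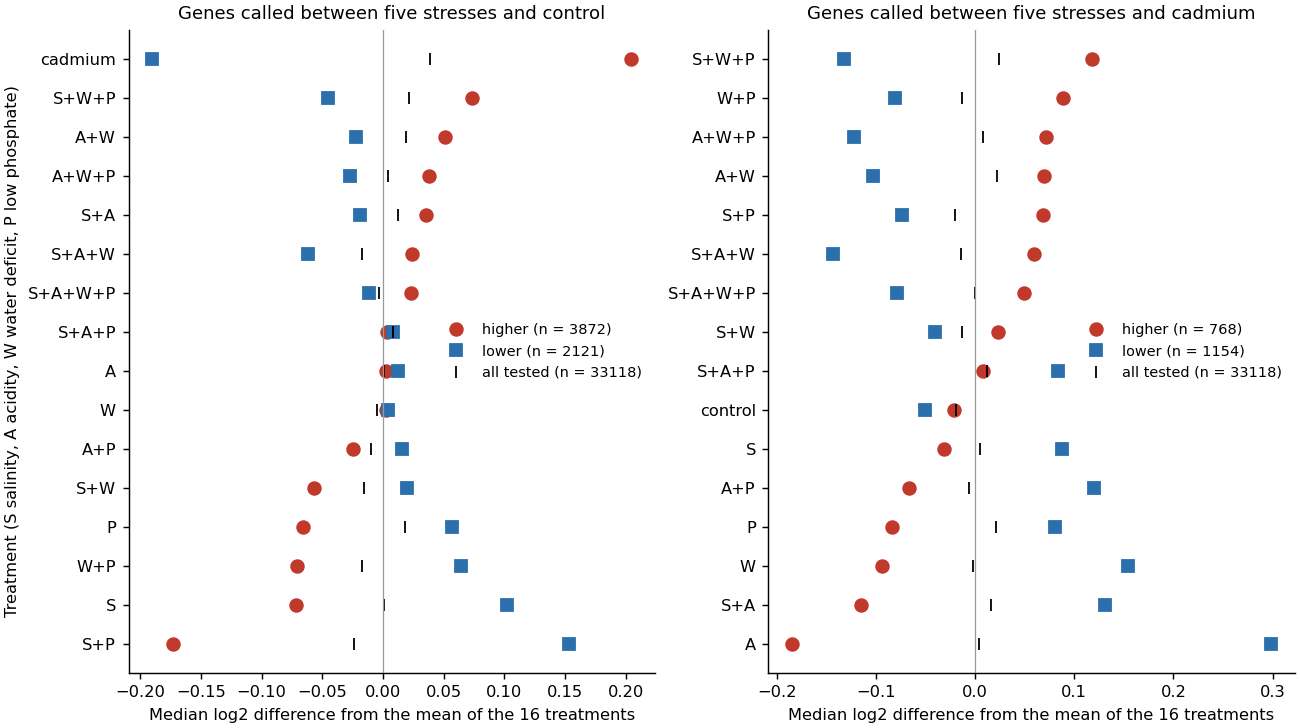
Median log2 difference of each treatment from the mean of the 16 treatments outside the comparison, for genes called higher (red circles) or lower (blue squares) in 5-stress flowers than in control (left) or cadmium alone (right), and for all 33118 features (black bars). Cadmium lies at 0.20 and -0.19 on the left, and acidity alone (A) at -0.18 and 0.30 on the right.

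The genes called against cadmium stood out under another treatment. The 1154 genes lower in 5-stress than in cadmium flowers were highest under acidity alone, with a median deviation of 0.30 and 91.5% of the genes above 0, followed by water deficit alone at 0.15. The lowest medians were -0.14 under salinity with acidity and water deficit and -0.13 under salinity with water deficit and low phosphate. The latter was the lowest both without 5-stress replicate 1 (-0.14, the former -0.09) and with libraries scaled to the median ratio (-0.17, the former -0.13). The 768 higher genes were lowest under acidity alone, at -0.18 with 14.7% above 0, and highest under salinity with water deficit and low phosphate, at 0.12. With scaled libraries the highest was water deficit with low phosphate (0.10), and salinity with water deficit and low phosphate had 0.09. Acidity alone kept its place at the end of the order, with median deviations of 0.27 for the lower and -0.20 for the higher genes without 5-stress replicate 1, and of 0.30 and -0.17 with scaled libraries. In control the medians were -0.05 for the lower and -0.02 for the higher genes. The median of all tested features under acidity was 0.00, and 51.1% of them lay above 0. Both acidity alone and water deficit alone have 2 libraries.

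Of the 7 named features called against cadmium, some followed these medians under acidity and others did not. GLYMA_01G142400 was at its lowest under acidity alone, and GLYMA_02G213000 and GLYMA_05G128300 were at their highest. GLYMA_08G180600 was at 11.5 ± 0.0591 FPKM (SD, n = 2) under acidity alone and 11.8 ± 0.843 FPKM (SD, n = 3) under cadmium alone, and at 1.83 ± 0.516 FPKM (SD, n = 3) under acidity with water deficit. GLYMA_15G271600, lower than in cadmium, was at 9.61 ± 0.336 FPKM (SD, n = 2) under acidity alone, order 11 of the 18 treatments from the highest. The higher features GLYMA_08G210100, at 4.397 ± 0.407 FPKM (SD, n = 2), and ENSRNA050003721, with a mean of 24.4 FPKM, were at order 10 and 5 under acidity alone.

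The 16 treatments built from salinity, acidity, water deficit and low phosphate contain no cadmium. None of their libraries entered the difference between 5 stresses and cadmium. In these 16 treatments, the main effect of a stress is the average level of the 8 that include it minus that of the 8 that lack it. Of the 768 genes higher in 5-stress than in cadmium flowers, 355 were called higher for water deficit (46.2%) and 36 lower (4.69%), while among all tested features the shares were 10.7% and 10.8%. Of the 1154 lower genes, 677 were called lower for water deficit (58.7%) and 142 higher (12.3%). Set against the water deficit lists, the overlap was 9.98% of the genes called higher and 19.0% of those called lower for that stress.

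Low phosphate and salinity had the same direction with smaller shares. For low phosphate, 192 of the higher genes were called higher (25%, background 2.13%) and 223 of the lower genes lower (19.3%, background 2.28%). These were 27.3% and 29.5% of the low phosphate lists. For salinity the figures were 115 (15.0%, background 1.80%) and 190 (16.5%, background 2.34%), or 19.3% and 24.5% of the salinity lists. Water deficit, low phosphate and salinity thus each had more calls on the side of the 5-stress flowers than on the opposite side.

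Acidity had more calls on the opposite side. Of the 768 higher genes, 179 were called lower for acidity (23.3%, background 5.26%) and 119 higher (15.5%, background 7.84%). Of the 1154 lower genes, 262 were called higher (22.7%) and 121 lower (10.5%). So a stress that was part of the combination had, on average over its backgrounds, more of these genes moving away from the 5-stress level than towards it.

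Without 5-stress replicate 1, 46.9% of 866 higher genes were called higher for water deficit and 4.85% lower. Of the 1538 lower genes, 47.9% were called lower and 355 higher, so that the share on the opposite side was 23.1%, against 12.3% with all libraries and 10.7% over all features. The low phosphate shares were then 25.8% of the higher and 19.2% of the lower genes, and the salinity shares 14.2% and 14.3%. For acidity, 25.6% of the higher genes were called lower and 24.0% of the lower genes higher. With libraries scaled to the median ratio the water deficit shares on the 5-stress side were 43.8% and 61.7%. These fits are not independent, because they share many of the libraries from which each gene's spread was estimated. A gene with a small spread in the shared libraries is more readily called in each fit, in either direction.

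**Figure D5:**
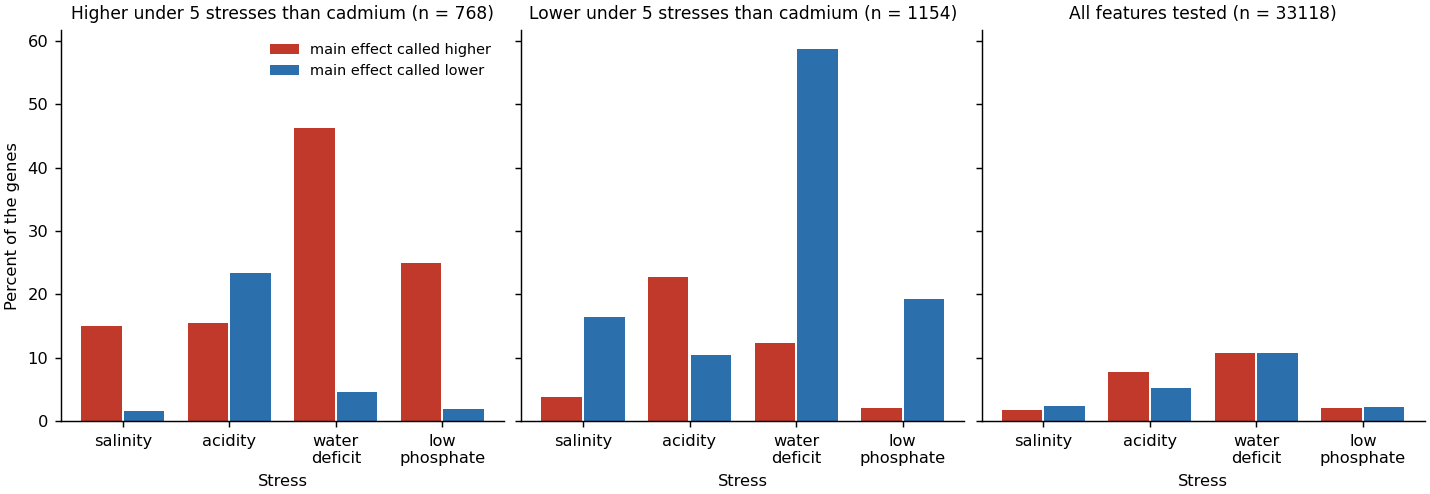
Percent of genes whose main effect in the 16 cadmium-free flower treatments was called higher (red) or lower (blue) for each stress, for the 768 genes higher (left) and the 1154 genes lower (middle) in 5-stress than in cadmium flowers, and for all 33118 features (right). The tallest bars are water deficit, at 46.2% on the left and 58.7% in the middle, against 10.7% and 10.8% on the right.

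Leaves under the same treatments were sequenced as separate libraries. Whether leaves and flowers were taken from the same plants is not stated, so the tissues may not be independent samples. The leaf control has 2 libraries and the leaf 5-stress and cadmium groups have 3. Of the 3872 genes higher than control in flower, 3229 were tested in leaf, where 1753 were higher (54.3%) and 459 lower (14.2%), beside 34.6% and 26.3% of all features tested in both tissues. Of the 2121 lower genes, 1730 were tested in leaf, with 930 lower (53.8%) and 341 higher (19.7%). The median leaf difference was 0.34 for the former and -0.34 for the latter. Without 5-stress flower replicate 1 the leaf shares were 49.7% higher for the former and 49.4% lower for the latter.

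Genes that separated 5 stresses from cadmium in flower were called in both directions in leaf. Of the 768 higher genes, 524 were tested in leaf, where 170 were higher (32.4%) and 201 lower (38.4%). Of the 1154 lower genes, 840 were tested in leaf, with 423 higher (50.4%) and 237 lower (28.2%). Over all features tested in both tissues 42.8% were higher and 25.1% lower in leaf. The median leaf difference was -0.05 for the genes higher in flower, 0.24 for those lower in flower and 0.18 over all features. Without 5-stress flower replicate 1, 31.1% of 570 higher genes were higher and 40.4% lower in leaf, and 45.2% of 899 lower genes were higher and 31.6% lower. The difference between tissues was not tested for these lists.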

How the data were processed

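RNA of soybean flowers and leaves was sequenced in 108 samples, grouped by their labels. The FPKM values were computed by the authors before they were deposited, 1 table per tissue. HISAT2 2.2.1 is named in the submitters' processing notes. The counting tool, genome build and annotation are not given in the sources used here. None of the IDs matched the reference gene table (0 matches), so the gene lists and tissue markers that had been drawn up were not run, and no sequence is shown.

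Flower acidity replicate 1, water deficit replicate 1 and 4-stress replicate 1 and leaf control replicate 3 equalled the mean of the other columns of their group and were left out, which left 51 flower and 53 leaf libraries. Features with a flower mean of at least 1 FPKM were kept, and those with both 0 and at least 10 FPKM inside any flower group were dropped. limma 3.58.1 (R 4.3.3) was fitted to log2(FPKM + 1) over all flower groups, or all leaf groups, with trend and robust moderation. A call needs a Benjamini-Hochberg adjusted p under 0.05 over 33118 flower or 28158 leaf features, and the code was tested on simulated data. Read totals are unknown. Low values of 5019 features gave relative depths, and 86.8% of these values came within 0.1 of whole reads (20% if spread evenly). The depths were fitted to these same values, so this share is not an independent check of them. The deposited values are FPKM and not read counts, so no count test was run. The labels name no sequencing batch. The p-values measure the spread between pools of plants, estimated for each gene over all groups of the tissue and not from the compared groups alone. The tests do not allow for a spread that differs between groups. The median standard deviation in flowers given every stress was 0.163 (0.098 without replicate 1), against 0.111 in control and 0.14 in cadmium flowers.

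Genes were named by a rule, the 2 largest rises and 2 largest falls among called features with no overlap between libraries, and the 2 largest positive and negative interaction differences. The members, lists and rule were chosen with earlier results of these data known. Alternatives were the pseudocount, the filters, library scaling, the groups fitted, the averaged columns, moderation, a replicate block and each library left out. Tables were made in Python 3.11.15 with numpy 2.4.6 and pandas 2.3.3, and plots with matplotlib 3.10.9.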

Additional observations from a re-analysis of the deposited data

Results flagged for a closer look

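The effect of the 4 stresses differed with and without cadmium, by a direct test of the difference, for 1284 features. The features named for it had differences of 2.39 (GLYMA_08G210100), 2.24 (GLYMA_12G183000), -3.50 (GLYMA_05G128300) and -2.47 (GLYMA_08G180600) on the log2 scale. The cadmium-free side of each rests on 2 4-stress libraries.

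The comparison of 5 stresses with cadmium went opposite ways in flower and leaf, in every library, for GLYMA_01G142400 (2.37 in flower, -0.60 in leaf) and GLYMA_08G180600 (-1.51 in flower, 2.43 in leaf). The difference between the tissues was not tested.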

How the results depend on the processing

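The counts of called features held within 1.5 times under most alternatives. When only the groups of a comparison were fitted, 5 stresses against control had 2423 calls, 5 stresses against cadmium 161 and the difference of the 4-stress effect 389. Cadmium against control had 8974 calls in such a fit, beside 10258, and the cause of the falls was not tested. Counting the averaged columns as libraries gave 2273 for the last. With each library left out in turn, the counts were 3838 to 7173 for 5 stresses against control (the lowest without 5-stress replicate 3, the highest without replicate 1) and 1215 to 2404 against cadmium (the lowest without cadmium replicate 3, the highest without 5-stress replicate 1). They were 7086 to 9609 for cadmium against control and 537 to 1563 for the difference of the 4-stress effect. Scaling to the median ratio gave 46.7% higher calls for cadmium against control, against 62.4% as deposited. No named feature reversed its direction.

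Replicate numbers did not pair the samples, since same-numbered libraries had correlations of deviations from -0.08 to 0.10. A replicate block gave 6062, 1951, 10311 and 1379 calls in the order above. Absolute depth is unknown, so no counting error or detection limit can be given for low features.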

Other observations

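Few features were at an extreme under 5 stresses. In all 3 5-stress libraries, 22 of the 33118 tested features lay above every other flower library and 15 lay below every other one. Cadmium alone had 300 and 168, the most of the 15 treatments with 3 libraries, and the 5-stress group placed 10 in order of the sum. Salinity with water deficit and low phosphate had the fewest, 3 and 4. Such a count needs all libraries of a group to agree, and it was not repeated without 5-stress replicate 1. The median spread within the 5-stress group was 0.163 with that replicate and 0.098 without it.

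Genes called against control sometimes followed one another in the order of their IDs. Among the higher genes, 18 runs of at least 4 consecutive tested IDs held 83 genes, the longest with 7 genes, found in 2 places. One of these lies on chromosome 2 by its IDs and had differences of 0.42 to 0.99. Among the lower genes 6 such runs held 26 genes, the longest with 5. Against cadmium no run exceeded 3 IDs. How many runs chance would give was not computed.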
